A study of Mus musculus with 12 samples.

Results

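T blast cells that had been deprived of IL-2 for 16 h were stimulated with PMA, a phorbol ester, together with a calcium ionophore (PMA/I). Their RNA was compared with that of T blast cells harvested without stimulation after the 16 h. The comparison concerns 6 of the 12 RNA-Seq libraries of the series and was made across all genes, for induction and repression alike. All cells were CD4 T cells, purified with CD4 microbeads from spleens of C42 mice, a C57BL/6 line that carries a human DNA fragment with the human IL3 and CSF2 genes. They were activated with 2 µg/ml concanavalin A (ConA), a lectin that stimulates T cells, for 40 h, and then kept in IL-2 (50 U/ml), for 2 days by the labels and for a shorter time by the methods. IL-2 was then removed for 16 h, and the cells were harvested at once (TB IL-2nil) or after PMA/I (TB+ IL-2nil). Parallel cultures kept IL-2 without stimulation (TB IL-2) or with PMA/I (TB+ IL-2). By the methods PMA/I was given for 2 h after the 16 h, so stimulated cells were harvested later than unstimulated ones. ConA activation and culture in IL-2 are therefore shared by all groups. The age of the mice was not given in the sources used here.

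The labels assign 3 libraries to each group, but 2 of them were placed here in each other's group. The library labelled TB IL-2nil replicate 3 listed *Il2*, the gene of the cytokine itself, at 1368 FPKM (fragments per kilobase of transcript, scaled to the fragments of the library), and the library labelled TB+ IL-2 replicate 3 listed it at 0.29 FPKM. Measured values chose this placement: after quantile normalization of the libraries, the columns of a gene table that accompanies the study were compared with them over 1381 genes, and the column of each of these libraries was met within 0.1% at every gene by the library of the other label, and at 0.072% by the library of its own label. Both libraries were therefore left out of the comparison tested and entered only alternative fits, which are named where they are used, and that comparison was that of 3 TB+ IL-2nil with 2 TB IL-2nil libraries. The values of the one placed in TB IL-2nil are given beside the others as those of the library labelled TB+ IL-2 replicate 3. Where not stated otherwise, values are listed in the order of replicates 1 and 2 for TB IL-2nil and 1, 2 and 3 for TB+ IL-2nil.

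PMA activates protein kinase C and through it the Ras and MAP kinase pathway, AP-1 and NF-kB, while the ionophore raises intracellular calcium, so that the phosphatase calcineurin lets NFAT factors enter the nucleus. Together they bypass the T cell receptor and switch on genes in waves, from immediate early transcription factors to cytokines, surface ligands and inhibitors of the same pathways. IL-2 signals through JAK kinases and STAT5 and sustains the growth of T blast cells, and resting T cells in turn express factors of quiescence and receptors for homing to and leaving lymph nodes.

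The promoters of 6 genes are shown because these genes stand for the sides of the response described below. *Il2*, *Csf2* and *Tnf* encode cytokines and *Il2ra* a receptor chain, and all of these were higher after PMA/I, whereas *Txnip*, which limits glucose uptake, and *Klf2*, a factor of quiescent T cells, were lower. The 250 bases before the RefSeq transcription start are printed in the direction of the gene (build GRCm38.p6), with capitals for matches to NFAT letters GGAAA on either strand and to an NF-kB site.

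*Il2* (chr3:37125955-37126204, minus strand): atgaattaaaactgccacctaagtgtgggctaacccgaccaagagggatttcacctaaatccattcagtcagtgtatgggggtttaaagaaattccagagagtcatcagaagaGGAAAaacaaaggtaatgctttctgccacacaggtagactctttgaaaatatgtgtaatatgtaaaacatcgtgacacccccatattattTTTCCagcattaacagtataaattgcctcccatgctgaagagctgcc

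*Csf2* (chr11:54249900-54250149, minus strand): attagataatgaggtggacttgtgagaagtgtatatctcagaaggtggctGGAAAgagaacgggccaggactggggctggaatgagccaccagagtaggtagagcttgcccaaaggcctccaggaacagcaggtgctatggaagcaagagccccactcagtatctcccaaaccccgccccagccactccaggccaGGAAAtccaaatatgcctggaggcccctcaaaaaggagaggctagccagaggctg

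*Tnf* (chr17:35202008-35202257, minus strand): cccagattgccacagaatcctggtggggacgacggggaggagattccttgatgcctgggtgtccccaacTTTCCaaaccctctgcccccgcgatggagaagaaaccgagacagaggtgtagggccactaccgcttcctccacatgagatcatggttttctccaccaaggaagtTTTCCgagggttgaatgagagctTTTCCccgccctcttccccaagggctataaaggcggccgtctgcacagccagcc

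*Il2ra* (chr2:11642542-11642791, plus strand): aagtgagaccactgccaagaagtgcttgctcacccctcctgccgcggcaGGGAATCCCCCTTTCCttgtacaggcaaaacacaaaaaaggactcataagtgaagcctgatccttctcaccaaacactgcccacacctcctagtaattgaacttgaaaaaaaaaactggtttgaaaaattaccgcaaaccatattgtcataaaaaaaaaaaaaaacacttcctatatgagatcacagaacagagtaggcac

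*Txnip* (chr3:96557707-96557956, plus strand): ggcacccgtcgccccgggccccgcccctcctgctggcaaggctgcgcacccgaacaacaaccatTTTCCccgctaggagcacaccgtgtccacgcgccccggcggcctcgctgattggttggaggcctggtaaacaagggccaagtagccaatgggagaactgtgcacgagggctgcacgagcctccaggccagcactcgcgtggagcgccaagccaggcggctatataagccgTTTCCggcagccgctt

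*Klf2* (chr8:72318812-72319061, plus strand): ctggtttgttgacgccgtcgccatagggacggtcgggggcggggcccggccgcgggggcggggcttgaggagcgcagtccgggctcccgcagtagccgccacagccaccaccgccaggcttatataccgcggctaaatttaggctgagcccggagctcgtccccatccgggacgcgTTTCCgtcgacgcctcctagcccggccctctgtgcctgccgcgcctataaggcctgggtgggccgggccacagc

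The NFAT letters matched at 2 places in the *Il2* promoter, 2 in that of *Csf2*, 3 in that of *Tnf* and 1 in that of *Il2ra*, where overlapping NF-kB matches lay beside them. They also matched at 2 places in the promoter of *Txnip* and at 1 in that of *Klf2*. Promoters of both directions thus held them, but not every promoter did. Over the same 250 bases they matched nowhere for *Nr4a1*, *Nr4a3*, *Spry1* and *Atf3*, which rose, or *Rflnb*, *Cdkn1b*, *Ccng2* and *Sash3*, which fell. Among the promoters described below, which are longer, they occurred in 60.0% for genes called higher and 59.3% for those called lower. The share was 59.3% for all genes tested.

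PMA/I changed the RNA of IL-2-deprived cells widely. Of 24439 gene names, 12442 exceeded 1 TPM (transcripts per 1000000, a length-corrected share of all transcripts, obtained here by rescaling the deposited FPKM values) in at least 1 of the 12 libraries and were tested. In limma with Benjamini-Hochberg adjustment, 949 genes (7.63%) were higher in TB+ IL-2nil by more than 3-fold with an adjusted P below 0.05, and 1350 genes (10.9%) were lower. The rises were larger than the falls, with a median of 2.4 against -2.01 in log2(TPM + 1), and 45 rises but 0 falls exceeded 6 on this scale. For genes with few TPM the added 1 makes changes look smaller than they were. Unless stated otherwise, differences given below are TB+ IL-2nil minus TB IL-2nil on this scale. The largest rise was that of *Ccl4* (10.83) and the largest fall that of *Fam78a* (-5.69).

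The genes called higher went from a median of 9.85 TPM in TB IL-2nil to 78.8 TPM in TB+ IL-2nil, and 139 of them had a mean below 1 TPM before stimulation. Together they accounted for 3.61% and 3.08% of the summed TPM of TB IL-2nil (short non-coding RNAs left out), 3.57% of that of the library labelled TB+ IL-2 replicate 3, and 27.4%, 23.5% and 20.7% of that of TB+ IL-2nil. The genes called lower fell from a median of 21.0 TPM to 3.92 TPM, and their share from 10.7% and 9.42% to 1.34%, 1.27% and 2.26%. In bulk RNA, fewer cells of a type and less RNA per cell cannot be told apart, and the values are shares of the RNA. The P values measure the spread between these libraries, which are not stated to come from separate mice.

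The median difference of all genes tested was -0.36 in log2(TPM + 1), so that a gene at 0 on this scale stood above the middle of all genes. This shift depends on the scaling, and it was 0 with scaling to the median, -0.14 with quantile normalization and -0.81 with rescaling to 1000000 alone. Accordingly, 41.3% of the called genes were higher with the upper quartile scaling used here, 66.2% with median scaling, 56.8% with quantile normalization and 18.5% with rescaling alone. The 5 libraries tested did not overlap between the groups for 949 of 949 genes called higher and 1346 of 1350 called lower. That is a description only, since these genes were chosen by their difference between the same libraries. The share over all genes tested was not counted.

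**Figure D1:**
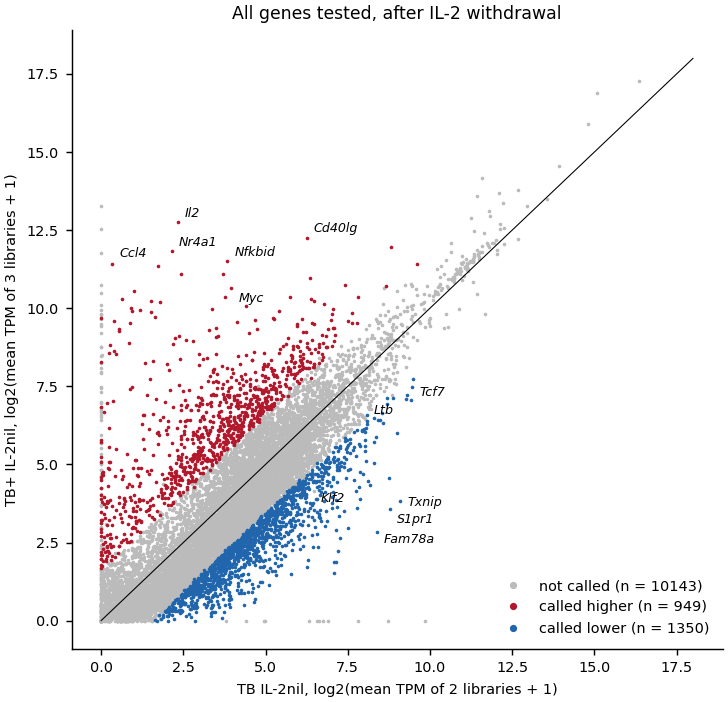
Mean level of each of the 12442 genes tested in TB IL-2nil (horizontal, 2 libraries) and TB+ IL-2nil (vertical, 3 libraries), both as log2(mean TPM + 1), with genes called higher in red (949), called lower in blue (1350) and the rest in grey. The line marks equal levels. Among genes called higher, *Ccl4* and *Il2* lie towards the left edge. Among those called lower, *Fam78a*, *S1pr1* and *Txnip* come from high levels before stimulation. The median level before stimulation was 9.85 TPM for genes called higher and 21.0 TPM for those called lower.

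Most cytokine genes were called higher. Of 28 cytokine genes tested, 20 were called higher and 1 lower, with a median difference of 4.17 against -0.36 for all genes. *Il2* (chr3:37019445-37024881, minus strand, on mm9) was at 4.17 and 3.88 TPM in TB IL-2nil, 0.997 TPM in the library labelled TB+ IL-2 replicate 3, and 8949, 7651 and 4116 TPM in TB+ IL-2nil. Each stimulated library exceeded every unstimulated one by a wide margin, and replicate 3 was the lowest of the stimulated ones. The difference was 10.35 (SE 0.56, adjusted P = 9.41e-06).

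*Il3* and *Csf2*, growth factors for myeloid cells, are neighbours on mm9 chr11:54060773-54080779 and moved alike. *Il3* was at 0.380 and 1.65 TPM before and 1950.0, 1777 and 752 TPM after PMA/I, with a difference of 9.49 (SE 0.44, adjusted P = 4.62e-06). *Csf2* went from 0.896 and 0 TPM to 730.2, 754 and 443 TPM, a difference of 8.83 (SE 0.37). The mice also carry the human genes, and whether human transcripts add to these mouse values was not tested.

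Genes of effector cytokines of different helper T cell classes rose in the same libraries. *Ifng*, the cytokine of Th1 cells, was at 1.11 and 0.718 TPM in TB IL-2nil and 716, 1316 and 858 TPM in TB+ IL-2nil (8.93, SE 0.50, adjusted P = 9.41e-06). *Il4*, which drives Th2 cells, was at 13.4 and 10.5 TPM and 3376, 1872 and 1336 TPM (7.30, SE 0.40), and *Il13*, its neighbour, at 0.995 and 0.721 TPM and 2067, 578 and 470.2 TPM (8.80, SE 0.74). *Il21*, which helps B cells, was listed at 0.132 and 0.128 TPM and reached 124, 100.4 and 150.2 TPM (6.78, SE 0.19), with the 3 stimulated libraries close together. *Il10*, an inhibitory cytokine, rose by 6.61 to 193, 77.04 and 119 TPM. *Tnf*, the gene of an inflammatory cytokine, was at 3.99 and 4.78 TPM and, in the library labelled TB+ IL-2 replicate 3, 9.35 TPM, and it reached 3839, 1146 and 1599 TPM (8.48, SE 0.61, adjusted P = 2.85e-05).

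*Il31*, whose product acts on sensory neurons and skin, was listed at 0 in TB IL-2nil and at 531, 283 and 122 TPM in TB+ IL-2nil, so no fold is given. *Lif* and *Areg*, named here after their values were seen, also moved far. *Lif*, a cytokine of the IL-6 family, went from 0.769 and 0.872 TPM to 1400.0, 327 and 461 TPM, and *Areg*, a ligand of the EGF receptor, from 0.370 and 0 TPM to 989, 93.9 and 59.05 TPM, in both cases with replicate 1 far above the others. *Ltb*, which encodes the membrane partner of lymphotoxin alpha, was the only cytokine gene called lower, at 551 and 681 TPM before and 72.5, 115 and 215 TPM after PMA/I (-2.32, SE 0.37, adjusted P = 0.000954). *Csf1* was at 9.76 and 1.19 TPM and 275, 13.00 and 30.4 TPM, and its difference of 3.35 was not called (adjusted P = 0.102). As a whole the cytokine list took 0.133% of the summed TPM in either TB IL-2nil library and 3.25%, 2.28% and 1.59% in TB+ IL-2nil.

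Of 12 chemokine genes tested, 6 were called higher and 0 lower, with a median of 2.40. *Ccl4* and *Ccl3*, which attract other leukocytes, lie side by side on mm9 chr11:83461346-83478185. *Ccl4* was at 0.527 and 0 TPM in TB IL-2nil and 938, 4510.0 and 2707 TPM in TB+ IL-2nil (10.83, SE 0.63, adjusted P = 1.05e-05), and *Ccl3* was at 0.624 and 0 TPM and 157, 477 and 544 TPM (8.08, SE 0.50). *Xcl1*, which attracts cross-presenting dendritic cells, reached 188, 548 and 633 TPM from at most 0.390 TPM (8.42). Replicate 1 was the lowest stimulated library for these 3 genes, although it was the highest for most induced genes. *Ccl1* went from 2.70 and 2.25 TPM to 1381, 1548 and 586 TPM and had replicate 3 as its lowest.

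**Figure D2:**
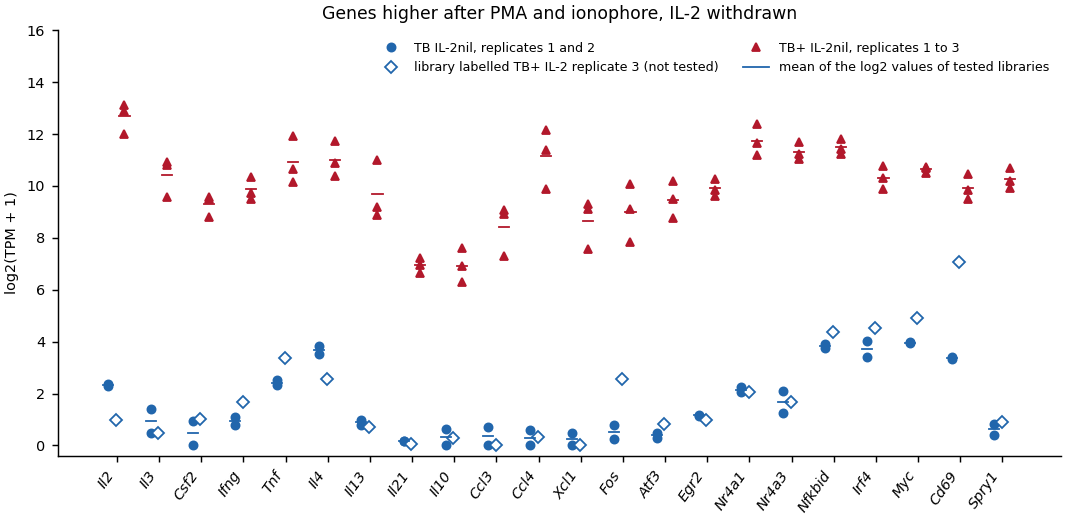
Level of 22 genes called higher, as log2(TPM + 1), in each TB IL-2nil library (blue circles), each TB+ IL-2nil library (red triangles) and the library labelled TB+ IL-2 replicate 3 (open diamonds, not tested), with bars for the mean of the log2 values of the tested libraries. In every gene shown the 3 stimulated libraries lie above the others, and *Cd69* has the highest open diamond, at 133 TPM.

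The immediate early transcription factors formed the next group. All 13 members of the EGR and NR4A list were tested, and 12 were called higher and 0 lower, with a median of 3.83. *Nr4a1* and *Nr4a3*, orphan nuclear receptors that follow T cell receptor signals, were at 3.12 and 3.72 TPM and 1.36 and 3.29 TPM before PMA/I, and at 5351, 2338 and 3226 TPM and 3287, 2094 and 2424 TPM after it. Their differences were 9.60 (SE 0.53) and 9.65 (SE 0.31, adjusted P = 6.14e-07). *Egr2* and *Egr3*, zinc finger factors that also restrain T cell activation, reached 1246, 789 and 909 TPM and 1456, 689 and 1455 TPM from 1.27 and 1.23 TPM and 2.09 and 1.59 TPM (8.74 and 8.65). *Srf*, the factor that binds serum response elements, was the member not called, at 17.9 and 17.9 TPM and 32.1, 34.1 and 31.6 TPM (0.83).

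Of 17 genes of FOS, JUN and other AP-1 proteins, 11 were called higher and 0 lower, with a median of 2.28. *Fos* was at 0.736 and 0.194 TPM in TB IL-2nil, 4.93 TPM in the library labelled TB+ IL-2 replicate 3 and 1085, 227 and 548 TPM in TB+ IL-2nil (8.48, SE 1.02, adjusted P = 0.000243). *Fosb*, a close relative, had the widest error of the group (7.87, SE 1.19), with 608, 189 and 619.7 TPM after stimulation. *Atf3*, a stress-induced factor of the same protein class, went from 0.214 and 0.413 TPM to 1155, 431 and 723 TPM (9.09, SE 0.36). *Junb* was already at 63.1 and 58.5 TPM before stimulation and rose to 794, 668 and 698 TPM (3.54). Among the 6 not called was *Batf*, a partner of IRF4, at 33.03 and 42.3 TPM and 61.97, 108 and 50.9 TPM (0.88, adjusted P = 0.0840).

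Of 19 NF-kB subunits, inhibitors and related genes, 12 were called higher and 2 lower, with a median of 2.21. *Nfkbid*, which encodes a nuclear inhibitor protein of NF-kB, led them with 13.99 and 12.6 TPM before and 3619, 2403 and 2738 TPM after PMA/I (7.66, SE 0.23, adjusted P = 3.78e-07). *Rel*, the gene of the subunit c-Rel, went from 22.8 and 26.7 TPM to 1030.0, 604 and 736 TPM (4.91, SE 0.31). *Nfkbia*, which encodes the inhibitor that holds NF-kB in the cytoplasm, was at 104 and 92.7 TPM and 489, 467 and 446 TPM, but at 648 TPM in the library labelled TB+ IL-2 replicate 3, above every stimulated library. Its difference of 2.24 (SE 0.72, adjusted P = 0.0262) did not stay called when any 1 of the 5 libraries was left out, with adjusted P values of 0.0547 to 0.110, nor with the re-placed library in the fit (1.34, adjusted P = 0.163). *Tnfaip3*, whose product A20 ends NF-kB signalling, was at 29.9 and 36.1 TPM, 308 TPM and 312, 262 and 309 TPM in the same order, and its call (3.12, adjusted P = 0.0110) was lost with the re-placed library (adjusted P = 0.0711) and without TB IL-2nil replicate 1 (adjusted P = 0.0634). *Tnip1* and *Cyld*, both inhibitors of NF-kB signalling, were called lower (-1.92 and -2.03).

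The library labelled TB+ IL-2 replicate 3 stood above TB IL-2nil replicates 1 and 2 for several other early genes, which are named here after their values were seen. *Jun* was at 52.7 TPM in it and at 2.26 and 4.32 TPM in those replicates. *Cd69* was at 133 TPM against 9.15 and 9.52 TPM, *Dusp1* at 43.8 TPM against 6.68 and 5.26 TPM, and *Zfp36* at 211 TPM against 39.95 and 48.2 TPM. For *Zfp36*, which encodes a protein that destabilizes cytokine mRNA, this value exceeded the 106, 71.4 and 151 TPM of TB+ IL-2nil. Over all genes called higher, the library lay below every TB+ IL-2nil library for 941 of 949, and over those called lower it lay above every one for 1339 of 1350. These counts do not test the placement, since measured values chose it and the genes were chosen by their difference between the groups. The share over all genes tested was not counted. What differed in that culture was not tested.

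Of 11 NFAT and calcineurin genes, members of the calcium pathway itself, 1 was called higher and 3 lower, with a median of -0.66. These counts depended on the scaling, with 3 and 3 by median scaling (median -0.19) and 0 and 5 by rescaling to 1000000 alone (median -1.26). *Nfatc1*, the NFAT gene that is itself induced by NFAT, rose from 66.5 and 73.3 TPM to 335, 220.4 and 257 TPM (1.92, SE 0.24), a call that was lost with quantile normalization and with rescaling to 1000000 alone. *Nfatc2* fell from 94.1 and 99.7 TPM to 15.36, 15.1 and 20.6 TPM (-2.46, SE 0.25), and *Nfatc3* from 150.0 and 137 TPM to 17.8, 15.03 and 29.8 TPM (-2.78, SE 0.30). *Rcan3*, of a family of calcineurin regulators, fell by 3.30. *Rcan1*, the family member known as a calcineurin target, was at 2.72 and 2.39 TPM and 11.3, 6.66 and 5.91 TPM and its difference of 1.29 stayed below 3-fold (adjusted P = 0.00542), which it passed with median scaling and with quantile normalization.

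Of 21 tested IRF and lineage factors, 7 were called higher and 2 lower, with a median of 0.78. *Irf4*, which is graded by T cell receptor strength, went from 9.53 and 15.5 TPM to 1765, 1257 and 942 TPM (6.60, SE 0.36, adjusted P = 9.41e-06), and *Irf8* from 4.09 and 5.99 TPM to 445, 723 and 339 TPM (6.33, SE 0.57). *Tbx21*, the gene of the Th1 factor T-bet, had 3.29 and 15.6 TPM before and 326, 242 and 205 TPM after PMA/I (4.91), and *Zbtb32*, a repressor induced in activated lymphocytes, rose by 4.57. *Gata3*, the Th2 factor, was also called higher (2.24), from 114 and 114 TPM to 571, 594 and 473 TPM. *Irf2* (-1.69) and *Runx3* (-2.10) were called lower.

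More ligands than receptors of the TNF family were called. Of 10 ligand genes, 7 were called higher and 0 lower (median 4.09), and of 11 receptor genes 3 were called higher and 0 lower (median 0.20). *Cd40lg*, through which helper T cells activate B cells, was already at 83.5 and 67.1 TPM in TB IL-2nil and reached 6810.0, 4033 and 3887 TPM (5.97, SE 0.38). *Tnfsf14*, which encodes LIGHT, went from 2.35 and 1.32 TPM to 1101, 906 and 788 TPM (8.37, SE 0.23, adjusted P = 3.26e-07), and *Tnfsf11*, which encodes RANKL, from 4.67 and 2.35 TPM to 786, 349 and 263 TPM (6.58). *Tnfrsf4* and *Tnfrsf9*, the costimulatory receptors OX40 and 4-1BB, rose by 4.37 and 4.28. The third receptor was *Fas* (1.83), which fell below 3-fold without TB IL-2nil replicate 1 (1.43).

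Of 17 genes of the CD28 family, checkpoint receptors and activation markers, 11 were called higher and 0 lower, with a median of 2.68. *Cd69*, which keeps activated cells in lymphoid tissue by opposing *S1pr1*, reached 1390.0, 719.7 and 920.2 TPM (6.56, SE 0.69, adjusted P = 0.000134). *Slamf1* went from 8.38 and 9.03 TPM to 855, 493 and 527 TPM (5.97), and *Havcr2*, the gene of the inhibitory receptor TIM-3, from 0.202 and 0.146 TPM to 54.00, 38.6 and 44.9 TPM (5.31). *Cd274*, which encodes PD-L1, rose by 4.99 to 511, 260.0 and 329.9 TPM. *Cd28* and *Icos*, by contrast, were at 233 and 246 TPM and 214 and 172 TPM in TB IL-2nil and at 301, 185 and 293 TPM and 245, 184 and 149 TPM in TB+ IL-2nil, overlapping between the groups.

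Of 29 cytokine receptor genes tested, 4 were called higher and 5 lower (median -0.63). The split depended on the scaling, with 5 and 2 by median scaling and 3 and 10 by rescaling to 1000000 alone. *Il2ra*, the alpha chain that gives the IL-2 receptor its high affinity, was at 58.6 and 80.96 TPM in TB IL-2nil, 74.4 TPM in the library labelled TB+ IL-2 replicate 3 and 668, 600.3 and 554 TPM in TB+ IL-2nil (3.12, SE 0.42, adjusted P = 0.000412). *Il2rb* was at 86.2 and 185 TPM and 230.2, 181 and 150.1 TPM and *Il2rg* at 361 and 379 TPM and 825, 645 and 652 TPM, and neither was called (0.54 and 0.92). *Il7r*, the receptor for the survival cytokine of resting T cells, fell from 836 and 562 TPM to 236, 105 and 196 TPM (-2.01, SE 0.56, adjusted P = 0.0148), and this call was lost without TB IL-2nil replicate 1 (-1.73, adjusted P = 0.0984). *Il10rb*, *Ifnar1* and *Ifngr2*, which are neighbours on mm9 chr16:91406409-91598045, were called lower (-2.79, -2.08 and -2.15).

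Some genes of inhibitors of the pathways stimulated were called higher. Of 15 MAP kinase phosphatase and Sprouty genes, 11 were called higher and 1 lower (median 2.83). *Spry1*, which encodes an inhibitor of Ras signalling, was at 0.789 and 0.321 TPM before and 1642, 1160.0 and 968 TPM after PMA/I (9.64, SE 0.47, adjusted P = 5.62e-06). *Dusp4* and *Dusp6*, phosphatases of ERK, reached 185, 388 and 412 TPM and 344, 261 and 264 TPM (5.91 and 5.30), and *Dusp2* went from 79.7 and 96.1 TPM to 771, 574 and 809 TPM (3.01, SE 0.19). *Dusp7* was called lower (-2.08).

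Of the 8 genes of the SOCS family and CISH, inhibitors of JAK and STAT signalling, 3 were called higher and 0 lower. *Cish* went from 15.5 and 5.11 TPM to 659.7, 432 and 524 TPM (5.73, SE 0.40), *Socs3* from 16.3 and 11.96 TPM to 121, 87.1 and 135 TPM (2.92, SE 0.32) and *Socs1* from 63.8 and 74.5 TPM to 568, 232 and 311 TPM (2.31, SE 0.49). Of 17 early inhibitors of T cell receptor signalling, 5 were called higher and 3 lower (median 0.08, and 4 and 5 by rescaling to 1000000 alone), led by *Gadd45b* (5.49) and *Ubash3a* (-3.17) in the respective directions. Of 7 RGS genes, whose products dampen G protein signals, 2 were called higher, *Rgs16* (6.60) and *Rgs1* (3.37), and *Rgs14* lower (-3.05). Of 11 regulators of cytokine mRNA decay, 3 were called higher and 1 lower, and *Zfp36l1* went from 75.9 and 86.3 TPM to 2132, 1886 and 2011 TPM (4.62, SE 0.17, adjusted P = 9.96e-07).

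Many genes of growth and biosynthesis were called higher as well. *Myc*, the factor that drives them in proliferating T cells, was at 14.8 and 14.4 TPM in TB IL-2nil, 29.2 TPM in the library labelled TB+ IL-2 replicate 3 and 1665, 1465 and 1680.0 TPM in TB+ IL-2nil (6.68, SE 0.54, adjusted P = 4.89e-05). It was the only 1 of the 10 genes of the MYC, MAX and MXD network called higher, while *Mxd4*, a MYC antagonist, was called lower (-2.50). Of 35 ribosome biogenesis factors, 29 were called higher and 0 lower, with a median of 2.70 and a range of -0.60 to 4.46. *Gnl3*, which encodes nucleostemin, went from 13.3 and 10.4 TPM to 327, 278 and 242 TPM (4.46, SE 0.36), and *Polr1b*, a subunit of RNA polymerase I, from 7.59 and 3.70 TPM to 126, 124 and 66.9 TPM (4.01). *Npm1*, which encodes nucleophosmin, was at 447 and 929 TPM and 1798, 2201 and 1307 TPM and was not called (1.42).

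Of 19 ATF4 and amino acid genes, 11 were called higher and 1 lower (median 2.14). *Slc7a1* and *Slc7a5*, transporters of arginine and of large neutral amino acids, reached 344, 224 and 219 TPM and 264, 218 and 138 TPM from 12.2 and 7.46 TPM and 16.9 and 15.5 TPM (4.61 and 3.54). Of 11 polyamine genes, 5 were called higher, among them *Odc1*, the enzyme that starts the pathway, with 54.2 and 80.9 TPM before and 1038, 805 and 581 TPM after PMA/I (3.55), and *Srm* (4.56). Of 19 sterol and fatty acid synthesis genes, 8 were called higher and 1 lower, led by *Cyp51* (4.14) and *Sqle* (3.90), and *Scd2* was called lower (-2.71). Of 18 chaperones 6 were called higher, with *Hspa5* of the endoplasmic reticulum at 75.9 and 88.6 TPM and 1815, 1083 and 912 TPM (3.87).

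Of 19 glycolysis genes tested, 3 were called higher and 1 lower (median 0.64). The 15 not called compare with 10143 of 12442 over all genes tested, and 16 of the 19 lay above the median of all genes. *Hk2*, the inducible hexokinase, went from 1.85 and 1.04 TPM to 87.95, 112 and 81.6 TPM (5.28, SE 0.49), and *Slc16a1*, a lactate transporter, from 4.68 and 9.88 TPM to 178, 225 and 126 TPM (4.46). *Pdk1*, which keeps pyruvate from the mitochondria, was called lower (-2.14). *Ldha* was at 373 and 402 TPM and 613, 667 and 534 TPM (0.64, adjusted P = 0.0624). Of 20 subunits of oxidative phosphorylation and cytochrome c, only *Cycs*, which encodes cytochrome c, was called (2.01), and their median was -0.01.

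The largest falls among the genes called lower included *Fam78a*, *AI467606*, *Txnip*, *Rflnb*, *S1pr1*, *Tdrp*, *Il16*, *N4bp2l1*, *Tbxa2r*, *Ifit1bl1*, *Cdkn1b*, *Card6*, *Ccng2* and *Sash3*, with differences from -5.69 to -4.28. *Fam78a* (chr2:31905575-31940377 on mm9) was at 346 and 316 TPM in TB IL-2nil, 192 TPM in the library labelled TB+ IL-2 replicate 3 and 4.35, 3.14 and 11.00 TPM in TB+ IL-2nil (-5.69, SE 0.41, adjusted P = 2.72e-05). *Txnip*, whose product limits glucose uptake, was at 563 and 521 TPM, 780.2 TPM and 8.45, 4.79 and 26.4 TPM in the same order (-5.57, SE 0.69, adjusted P = 0.000268). In both genes replicate 3 kept the highest level of the stimulated libraries. *Il16*, which encodes a chemoattractant for CD4 cells, fell from 149.7 and 158 TPM to 2.90, 2.82 and 9.84 TPM (-4.83), and *Sash3*, the gene of a lymphocyte adaptor protein, from 455 and 415 TPM to 17.3, 16.2 and 34.8 TPM (-4.28).

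Genes of resting T cells fell more often than they rose. Of 24 BTG, TOB and quiescence genes, 10 were called lower and 4 higher, with a median of -1.41 against -0.36 for all genes. *Cdkn1b*, which encodes the cyclin-dependent kinase inhibitor p27, fell from 222 and 216 TPM to 13.6, 4.34 and 15.2 TPM (-4.35, SE 0.47, adjusted P = 0.000156), and *Ccng2*, which encodes a cyclin of resting cells, from 120.2 and 158 TPM to 5.82, 3.37 and 9.99 TPM (-4.33). *Pik3ip1*, an inhibitor of PI3 kinase, fell from 112 and 121 TPM to 5.45, 2.62 and 16.3 TPM (-3.99). The members called higher were *Ndrg1* (3.85), *Btg3* (3.25), *Cdkn1a* (2.74) and *Klf10* (1.77). *Btg1*, an inhibitor of proliferation, was at 328 and 356 TPM before and 815, 630.3 and 759.5 TPM after PMA/I, higher in every stimulated library, but below 3-fold (1.09, adjusted P = 0.00475).

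Of 12 transcription factors of naive T cells, 6 were called lower and 0 higher, with a median of -1.30, and 4 were called lower with median scaling. *Klf2*, which activates *S1pr1*, was at 241 and 191 TPM in TB IL-2nil and 13.6, 13.4 and 22.9 TPM in TB+ IL-2nil (-3.65, SE 0.27, adjusted P = 2.94e-05). *Tcf7*, which encodes TCF-1, fell from 599 and 761 TPM to 81.9, 64.6 and 251 TPM (-2.61, SE 0.53), with replicate 3 well above the other stimulated libraries. *Id3* (-3.50) and *Klf3* (-3.44) were also called lower.

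Of 14 lymph node homing and egress genes, 5 were called lower and 2 higher (median -1.09). *S1pr1*, the receptor through which T cells leave lymph nodes, was at 484 and 394 TPM, 331 TPM in the library labelled TB+ IL-2 replicate 3, and 9.17, 4.82 and 19.1 TPM after PMA/I (-5.37, SE 0.45, adjusted P = 5.51e-05). *Ccr7*, the receptor for entry into lymph nodes, fell from 244 and 312 TPM to 17.9, 8.14 and 38.01 TPM (-3.87), and *S1pr4* from 225 and 243 TPM to 10.4, 7.11 and 24.1 TPM (-4.15). The members called higher were *Gpr183* (2.00) and *Cxcr3* (1.93).

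**Figure D3:**
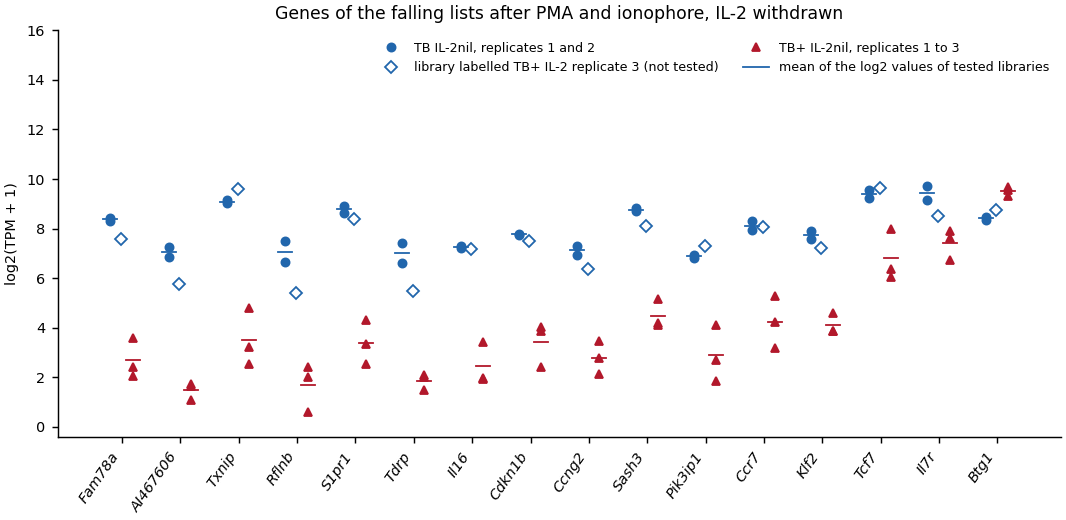
Level of 16 genes, as log2(TPM + 1), in each TB IL-2nil library (blue circles), each TB+ IL-2nil library (red triangles) and the library labelled TB+ IL-2 replicate 3 (open diamonds, not tested), with bars for the mean of the log2 values of the tested libraries. In 15 of them the stimulated libraries lie below both tested TB IL-2nil libraries, and *Btg1*, at the right, is higher after PMA/I.

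Of 16 BCL-2 family genes, 5 were called higher and 2 lower. *Bcl2a1b*, a prosurvival member that shares much of its sequence with other Bcl2a1 copies so that its reads may be divided among them, went from 19.1 and 23.98 TPM to 577, 684 and 518 TPM (4.72), and *Bcl2l1*, which encodes BCL-XL, rose by 3.28, while *Bbc3*, which encodes the killer protein PUMA, fell from 44.9 and 36.8 TPM to 1.88, 0.848 and 4.27 TPM (-3.78). Of 24 genes of CD3, CD4 and proximal receptor signalling, 4 were called higher, led by *Malt1* (2.73) and *Lcp2* (2.63), and the adaptor *Grap2* was called lower (-3.63), while rescaling to 1000000 alone gave 3 higher and 4 lower. Of 24 interferon-stimulated genes, 6 were called higher, led by *Gbp3* (3.02), and 3 lower, led by *Ifit2* (-3.25). That split turned with the scaling, with 7 higher and 1 lower by median scaling and 2 and 4 by rescaling to 1000000 alone. Of 8 granzyme list members, *Srgn*, which encodes the granule proteoglycan serglycin, was called higher (3.13), as was *Gzmb* (2.35), though not without TB IL-2nil replicate 2 (0.96, adjusted P = 0.0904) or TB+ IL-2nil replicate 2 (adjusted P = 0.0540).

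Of 20 DNA replication genes 0 were called in limma, with a median of -0.59. In the same fit 7 of them had an unadjusted P below 0.05. An adjusted P below 0.05 at a smaller fold was found for 6, of which 5 were lower and 1 higher. Over all 12442 genes tested, the counts at any fold were 7394 unadjusted and 6645 adjusted. Of 20 mitosis genes 1 was called lower, *Plk1* (-2.22, adjusted P = 0.0185), a call that was lost without TB IL-2nil replicate 2 (-1.17, adjusted P = 0.173) and without TB+ IL-2nil replicate 1 (adjusted P = 0.0595) or 2 (adjusted P = 0.0552). The median of the mitosis list was -1.0 against -0.36 for all genes, with a range of -2.22 to -0.29. Only 1 member lay above the median of all genes. The summed level of the list was 146 to 910 TPM in the tested TB IL-2nil libraries and 59.7 to 372 TPM in TB+ IL-2nil. It was 909 TPM in the library labelled TB+ IL-2 replicate 3. With the re-placed libraries in the fit, 6 mitosis genes were called lower, as by rescaling to 1000000 alone. Of 15 G1 cyclin and kinase genes, *Ccnd2*, the D cyclin of growth signals, was called higher (2.50, from 94.6 and 75.5 TPM to 586, 612 and 313 TPM) and 4 were called lower, with *E2f2* furthest (-2.97), and 7 by rescaling to 1000000 alone. Of 8 GIMAP genes *Gimap5* was called higher (1.78), but not without TB IL-2nil replicate 1 (1.18, adjusted P = 0.134).

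With rescaling to 1000000 alone, the medians of the TNF receptors (-0.41), T cell receptor inhibitors (-0.53), RGS genes (-0.22), mRNA decay regulators (-0.16), BCL-2 family (-0.13) and proximal receptor signalling genes (-0.55) turned negative, and with quantile normalization so did those of the TNF receptors (-0.16) and proximal signalling genes (-0.54). The median of the oxidative phosphorylation genes turned positive with median scaling (0.46).

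**Figure D4:**
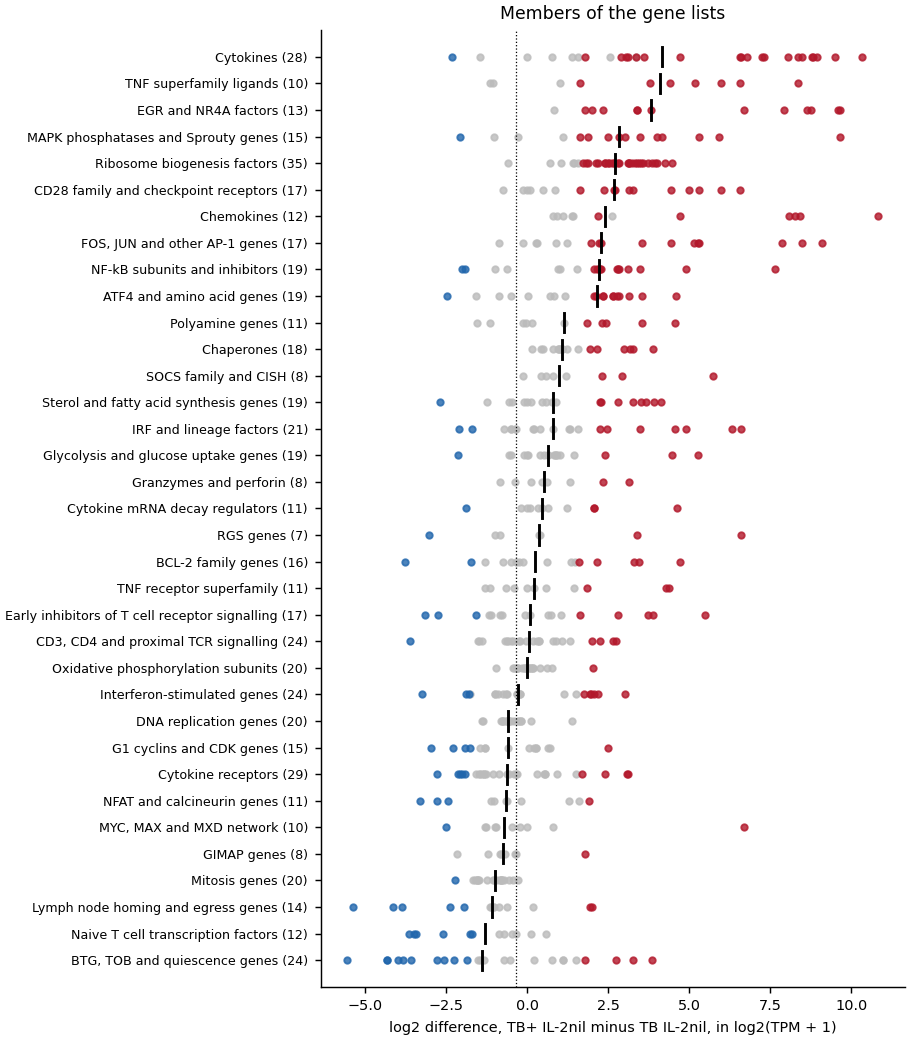
Each point is a tested member of a gene list, placed by its log2 difference between TB+ IL-2nil and TB IL-2nil in log2(TPM + 1), red when called higher, blue when called lower and grey otherwise. Black bars mark list medians, numbers in parentheses the members tested, and the dotted line the median of all genes (-0.36). Cytokines, TNF ligands and EGR and NR4A factors lie at the top, and quiescence, naive T cell and homing genes at the bottom.

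The markers of CD4 T cells fitted the label in both groups, with a summed level of 9 genes between 3089 and 3325 TPM in TB IL-2nil and between 2797 and 3334 TPM in TB+ IL-2nil, and 0 of 9 were called. The CD8 markers summed to 14 to 22.1 TPM and 8.64 to 22.0 TPM, and the 5 B cell markers to 24.3 to 30.3 TPM and 5.66 to 13.3 TPM, with 1, *Cd79b*, called lower (-1.96). Of 6 myeloid markers 3 were tested, summing to at most 4.88 TPM, and the 3 of 7 erythroid markers tested summed to at most 1.06 TPM. Of 4 NK cell markers 0 were among the genes tested, so no level is given for them. The 4 dendritic cell markers summed to 2.37 to 3.66 TPM in TB IL-2nil and 4.93 to 7.43 TPM in TB+ IL-2nil, with 0 called. The 3 regulatory T cell markers summed to 4.66 to 8.28 TPM and 7.40 to 17.1 TPM, with 0 called. The part of the B cells in the falls was not tested. The relative depth of the 12 libraries, judged from the steps between low values, ranged from 0.409 (TB IL-2nil replicate 2) to 1.24 around a typical library. Short non-coding RNAs took 16.6% to 53.3% of the FPKM sum. Their share was 21.3% and 37.5% in TB IL-2nil, and 53.3%, 40.3% and 33.0% in TB+ IL-2nil.

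On the first principal component of the 6 libraries, which held 71.3% of the variance, the stimulated libraries lay at 93.0, 83.3 and 54.6 and TB IL-2nil at -73.2 and -80.2. Among the stimulated cultures, replicate 3 most often stood nearest to TB IL-2nil, in both directions. Of the 949 genes called higher, replicate 3 was the lowest stimulated library in 619 (65.2%) and replicate 1 the highest in 591 (62.3%), and of the 1350 called lower replicate 3 was the highest in 957 (70.9%). Over all genes tested, replicate 3 was the lowest in 30.0% and the highest in 36.9%. Without TB+ IL-2nil replicate 3, 1041 genes were called higher and 1624 lower. Between the highest and lowest stimulated library the median was 1.67-fold for genes called higher and 1.69-fold for those called lower, against 1.47-fold over all genes tested, a description only, since the calls used this spread. It exceeded 3-fold in 47 (4.95%) of the genes called higher and 76 (5.63%) of those called lower, against 487 (3.91%) of all genes tested. Among the widest spreads of genes called higher, in log2(TPM + 1), were those of cytokine and chemokine genes, named after their values were seen. *Il5*, which recruits eosinophils, was at 73.9, 8.36 and 1.47 TPM, *Cxcl2*, which recruits neutrophils, at 139, 15.3 and 7.03 TPM, and *Il6*, an inflammatory cytokine, at 33.4, 3.16 and 3.62 TPM, and in all of these replicate 1 stood far above the others. The adjusted P values of *Il5* (0.0457) and *Il6* (0.0388) lay close to the threshold.

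The response after IL-2 withdrawal was then set beside that of cells kept in IL-2, with which it shares no library. With IL-2, 562 genes (4.52%) were called higher after PMA/I and 483 (3.88%) lower. The 465 genes called higher in both made up 49.0% of those after withdrawal and 82.7% of those with IL-2, and the 376 called lower in both made up 27.9% and 77.9%. No gene was called in opposite directions. Across the 12442 genes, which are not independent replicates, the 2 responses correlated with r = 0.79. Of genes called after withdrawal, 806 of 949 rises and 1283 of 1350 falls were larger without IL-2 than with it, a description only, since these genes were chosen by the response after withdrawal.

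The difference between the responses was tested as an interaction in the same fit, where 1 gene (0.00804%) had a larger and 3 (0.0241%) a smaller response after withdrawal at an adjusted P below 0.05, while 2226 had an unadjusted P below 0.05. The gene with the larger response was *Cish*, a direct target of IL-2 and STAT5. Without IL-2 it went from 15.5 and 5.11 TPM to 659.7, 432 and 524 TPM, and with IL-2 it was at 157, 197 and 145 TPM in TB IL-2 and 363 and 229 TPM in the tested TB+ IL-2 libraries. The unstimulated libraries lay lower without IL-2 than with it, and the stimulated libraries lay higher, with no overlap in either case. The interaction was 4.93 (SE 0.57, adjusted P = 0.0403). This call was lost without TB IL-2 replicate 2 (adjusted P = 0.137) or 3 (0.115), TB+ IL-2 replicate 2 (0.129), or TB+ IL-2nil replicate 1 (0.104) or 2 (0.0970), and with the replicate block in the tested libraries (0.0662), rescaling to 1000000 alone (0.114), a pseudocount of 0.1 (0.0780), no filter (0.0554) and all 12 libraries as labelled (0.914). The fitted value was 4.21 to 5.64 over the 23 alternatives. Those with the smaller response, which lie outside the naming rule, were *1810009J06Rik*, *Mir3061* and *Mir7001*.

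The number of interaction calls rested on which libraries were fitted. It was 331 larger and 195 smaller with the re-placed libraries, 0 and 0 with the replicate number as a block in the 10 tested libraries, and 718 and 760 with that block and all 12. Leaving out TB IL-2 replicate 1 gave 78 and 77, and leaving out TB+ IL-2nil replicate 3 gave 44 and 20, whereas without TB IL-2 replicate 3 or TB+ IL-2nil replicate 2 it was 0 and 0. The causes were not tested.

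Some genes and lists are given by their values although they did not pass that test. Of the 35 ribosome biogenesis factors, 29 were called higher after withdrawal and 8 with IL-2 (medians 2.70 and 1.12), 27 had an unadjusted interaction P below 0.05, 0 passed after adjustment, and 21 passed with the re-placed libraries. *Myc* was at 40.2, 170.3 and 180.3 TPM in TB IL-2 and 757 and 698 TPM in TB+ IL-2, against 14.8 and 14.4 TPM and 1665, 1465 and 1680.0 TPM without IL-2 (interaction 3.94, adjusted P = 0.0800). *Socs1* was at 228, 396 and 132 TPM in TB IL-2 and 112 and 69.7 TPM in TB+ IL-2, where its difference was -1.36 in contrast to 2.31 without IL-2 (interaction 3.67, adjusted P = 0.0772). Of the SOCS family and CISH, 3 were called higher after withdrawal and 0 with IL-2.

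The cytokine list gave like counts in both, with 20 called higher after withdrawal and 20 with IL-2. The median interaction of the list was -0.34. *Il2* itself reached 8949, 7651 and 4116 TPM without and 7657 and 6315 TPM with IL-2 (interaction -1.64, adjusted P = 0.321), and *Csf2* 730.2, 754 and 443 TPM and 2332 and 3656 TPM (interaction -0.60, adjusted P = 0.576). *Il3* reached 1950.0, 1777 and 752 TPM without and 3751 and 5779 TPM with IL-2 (interaction -2.58, adjusted P = 0.0962). *Il2ra* was lower without IL-2 before stimulation, with 58.6 and 80.96 TPM without and 339, 759 and 229 TPM with IL-2, and 668, 600.3 and 554 TPM and 848 and 805 TPM after it (interaction 2.03, adjusted P = 0.135). These interactions did not pass the test, which does not show that the responses were alike.

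**Figure D5:**
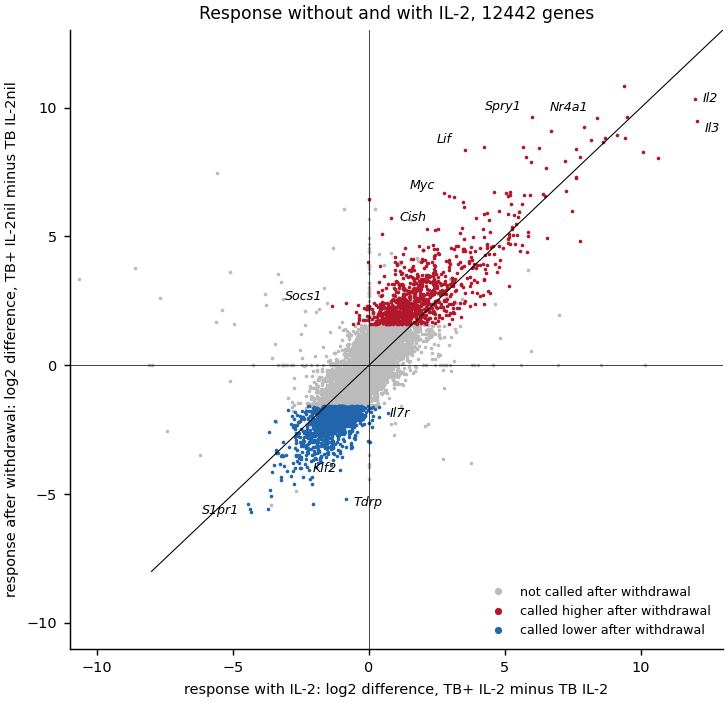
Log2 difference after PMA/I in log2(TPM + 1) for 12442 genes, with IL-2 (horizontal, TB+ IL-2 minus TB IL-2) and after withdrawal (vertical, TB+ IL-2nil minus TB IL-2nil), with genes called higher after withdrawal in red, called lower in blue and others in grey. The diagonal marks equal responses. Most red points lie above it and most blue points below it, a description only, since the colours follow the response after withdrawal. *Cish*, with 5.73 without and 0.80 with IL-2, lies far above the diagonal.

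Among neighbouring genes within 100 kb (GENCODE M1 gene models on mm9), those called higher included *Il4*, *Il13* and *Il5* (chr11:53416484-53538608), *Tnf* and *Lta* (chr17:35336326-35342296), and *Cd274* and *Pdcd1lg2* with *Jak2* (chr19:29326318-29545647). Schlafen genes formed a stretch of falls (chr11:82764851-83028656), to which *Slfn1* belonged (319.6 and 257 TPM before and 19.7, 20.7 and 17.6 TPM after PMA/I, -3.83). Genes with the largest rises had short gene models. The 43 genes with a rise over 6 and a gene model spanned a median of 6.71 kb with 4 exons, against 20.9 kb and 8 exons over all genes tested.

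Promoter letters are given as a description. A promoter with a single start in the RefSeq table (300 bases, of which 250 lie before the start, GRCm38.p6) was found for 603 genes called higher, 821 called lower and 7675 tested. The CRE letters TGACGTCA occurred in 5.80% of the first, 2.68% of the second and 3.56% of the third, and the E-box CACGTG in 15.8%, 10.4% and 10.4%. The AP-1 letters TGANTCA occurred in 7.63%, 3.90% and 4.77%, and the NF-kB site in 6.80%, 5.36% and 4.98%. The NFAT letters GGAAA, which are short, occurred in 60.0%, 59.3% and 59.3%, the EGR letters GCGTGGGCG in 1.82%, 1.10% and 1.19%, and the CArG box in 1.16%, 0.974% and 1.24%, always on either strand. Of all 22862 such promoters in the table, the shares were 1.85% for the CRE, 7.12% for the E-box, 7.98% for AP-1, 4.26% for the NF-kB site, 61.1% for NFAT, 0.586% for EGR and 1.53% for the CArG box. A match is not a site, and its absence says nothing of the factor.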

How the data were processed

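RNA was prepared with Trizol and RNeasy columns, depleted of ribosomal RNA, made into strand-specific paired-end libraries (NEBNext Ultra II Directional) and sequenced. Per the labels and the methods, reads were trimmed with Trimmomatic 0.32, aligned to mm9 with HISAT2 2.1.0 and quantified with StringTie 1.3.3 on RefSeq gene models. The deposited values were named TPM in the methods, but the files name them FPKM, and their sums of 193815 to 420487 per library fit FPKM, which the authors deposited for 24439 gene names in each of 12 libraries. The test planned for TPM was therefore run on these FPKM values rescaled to TPM. Read counts were not used here, so depth is unknown beyond the relative depth given, and no counting intervals could be given.

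The values of a library were divided to sum to 1000000 and brought to a common upper quartile (75th percentile), and 12442 genes above 1 TPM in at least 1 library were kept. log2(TPM + 1) was fitted with limma 3.58.1 (R 4.3.3) over 10 libraries in 4 groups, with 6 residual degrees of freedom and Benjamini-Hochberg adjustment over all genes, after the script was tested on simulated data. Both re-placed libraries were left out of the fit. A call required a change beyond 3-fold together with an adjusted P below 0.05, or the latter alone for interactions. Adjusted P values in the text are from this fit unless stated. In all, 24 alternatives were fitted. Same-numbered libraries deviated together, with correlations of 0.129 to 0.467 over 13 pairs of the tested libraries and 0.101 to 0.531 over 18 pairs of all 12. Most tested pairs of unlike number had negative correlations, which are not separate evidence, since deviations from group means cancel out within a group. However, TB IL-2nil replicate 2 correlated at 0.208 with TB+ IL-2nil replicate 3 and at 0.193 with replicate 2. The numbers were therefore taken as a possible pairing only. They did not enter the main fit and were used in the alternatives with a replicate block.

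Genes were named by rule: the 15 largest rises and falls without overlap (leaving out predicted genes, small RNAs and histones), a set of fixed genes, up to 4 called members of each gene list and the called interactions. Other members are named after their values were seen, where a list was to be accounted for. The comparison, gene lists and named genes were chosen with earlier results of these data known. Some genes that the rule names are not reported here. Lists are described by counts and medians, with no test. Gene positions are those of GENCODE M1 on mm9, and promoter sequences are from RefSeq on GRCm38.p6, not the build of the files. Numerical work used Python 3.11.15, numpy 2.4.6, pandas 2.3.3 and matplotlib 3.10.9.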

Additional observations from a re-analysis of the deposited data

Results flagged for a closer look

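Results in this paragraph differed between the response after IL-2 withdrawal and that with IL-2 by the interaction test in limma, or lay outside the comparison tested. *Cish* had an interaction of 4.93 (adjusted P = 0.0403, and 4.46 with adjusted P = 0.0108 with the re-placed libraries), a call that was lost when any of 5 of the 10 libraries was left out, and in 5 of 13 other alternatives, the replicate block in the tested libraries among them (adjusted P = 0.0662). Its level in the library labelled TB IL-2nil replicate 3 was 290.4 TPM. *Mir7001* (-10.14, adjusted P = 0.0124) and *Mir3061* (-8.53, adjusted P = 0.0124) were listed at 0 in 10 of 12 libraries and were above 0 only in TB+ IL-2 replicates 1 and 2, at 3178 and 401.5 TPM for *Mir7001* and 912.7 and 147.8 TPM for *Mir3061*, so that the size of these fitted values depends on the added 1. The library labelled TB IL-2nil replicate 3, which was placed in the same group, listed both at 0, and with the re-placed libraries the interaction of *Mir7001* had an adjusted P of 0.202. *1810009J06Rik* had an interaction of -2.97 (adjusted P = 0.0124), with 8.05 and 7.38 TPM in TB+ IL-2, 3.11 TPM in the library labelled TB IL-2nil replicate 3 and at most 0.546 TPM in the others.

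The library labelled TB IL-2nil replicate 3, which was left out of the comparison tested and entered only alternative fits, held *Il2* at 1368 FPKM, above every other library labelled as unstimulated.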

How the results depend on the processing

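Counts are given as higher and lower genes. They were 1182 and 2154 with a pseudocount of 0.1, 708 and 515 with 5, 615 and 2704 with rescaling to 1000000 alone, 1117 and 851 with quantile normalization, 1407 and 718 with median scaling, and 1606 and 2972 at more than 2-fold. With all 12 libraries as labelled they were 109 and 146, with 0 and 0 interactions, and 132 of 157 named genes lost their call. Leaving out 1 library at a time gave 901 to 1041 higher, 1217 to 1624 lower, and 0 to 78 larger and 0 to 77 smaller interactions. Interactions otherwise numbered 331 and 195 with re-placed libraries, 61 and 89 with a pseudocount of 5, 4 and 9 without a filter, 15 and 6 with genes above 1 TPM in at least 3 libraries, 86 and 35 with quantile normalization, 26 and 6 without short non-coding RNAs, and 15 and 6 with limma-trend. With the replicate block they were 0 and 0 in 10 libraries and 718 and 760 in all 12 re-placed. The replicate block moved no other count by more than 1.5-fold (1019 and 1484, and 972 and 1331). The causes of these changes were not tested. No named gene reversed under the 24 alternatives. With rescaling to 1000000 alone, *Nfkbia*, *Nfatc1*, *Fas*, *Zc3h12a*, *Gimap5*, *Irgm1*, *Gzmb* and *Cycs* lost their call, with median scaling *Il7r* and *Zc3h12d* among the genes named, with quantile normalization *Nfkbia*, *Nfatc1*, *Ccne1* and *Plk1*, without a filter *Il7r* and *Plk1*, and with only the groups compared *Plk1* and *Gzmb*.

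With 2 unstimulated libraries in the test, an arm left with 1 library was assumed to vary like the other groups. The placement of the libraries rests on 1 gene table, changes of low genes are understated by the added 1 TPM, and unequal depth limits genes near 1 TPM.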
